A study of Mus musculus with 6 samples.

Results

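The kinesin motor family was described here as every gene whose platform symbol is Kif followed by a number and an optional letter or letter plus number, which gave 37 of the 18194 genes measured. The probe set with the highest mean log2 value over the 6 arrays stood for each gene, so the choice used no difference between the groups. Lineage-negative, cKit+, Sca1+ (LSK) bone marrow cells, the fraction that holds the blood stem cells and early multipotent progenitors, had been sorted from mice aged 6 weeks. All mice had the genotype Hes1 GFP/WT, in which 1 allele of the Notch target Hes1 reports through GFP, and no mice without the reporter allele were part of the comparison. The study has 2 groups of 3 arrays, from GFP-positive and GFP-negative LSK cells, and in each group replicate 1 was female and replicates 2 and 3 were male. The comparison asks how progenitors with a signal from the Hes1 locus differ from those without it.

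Kinesins are motors that use ATP to walk along microtubules or to take their ends apart. Mitotic kinesins build the spindle, move chromosomes and help to cut the dividing cell apart, and their genes are known to be transcribed mostly in late S, G2 and M phase, so that their RNA is low in resting cells. Transport kinesins carry vesicles, organelles and ciliary cargo in dividing and resting cells alike, and several are known mainly from neurons. Long-term blood stem cells are known for being mostly quiescent, whereas multipotent progenitors divide more often. The 37 genes comprised 11 mitotic kinesins, 13 transport kinesins and 13 others, among them depolymerising, ciliary and atypical members.

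A promoter sequence, from 250 bases before the gene's start to 50 bases from it on, was found in the RefSeq table (GRCm38.p6) for 31 of the 37 kinesins, 35 promoters in all. Entries for Kif5a, Kif5b, Kif13b, Kif20a, Kif21b and Kif28 were missing. Many genes of late cell cycle phases are known to carry the element TTTGAA, the cell cycle genes homology region (CHR), which is bound by MuvB complexes that repress these genes in resting cells. On either strand, TTTGAA was found in 9 of the 10 mitotic kinesin promoters (90.0%), in 1 of 12 transport kinesin promoters (8.33%) and in 2 of 13 others (15.4%). Of all 32851 promoters of the same length in the table, 17.9% held it. Among promoters of the spindle, centromere and midzone genes described further below, 16 of 23 held it (69.6%). Such a match describes the letters and is no evidence of binding. In 7 mitotic kinesins a match lay within the 100 bases from 70 before the start to 30 from it on, a window set after the positions were seen. The same held for 1 of 12 transport promoters (Kif1a), 1 of 13 others (Kif26b) and 5.11% of all promoters. It also held for 11 of the 23 spindle, centromere and midzone promoters (47.8%). The 7 mitotic windows are shown because they hold the element near the start, and those of Kif1a and Kif26b are not printed. Beside them stand Kif24, with the variant TTCGAA, and Kif3a, a transport kinesin without either. Capitals mark TTTGAA on the printed strand, its reverse complement TTCAAA, or TTCGAA, and each sequence runs 5′ to 3′ on the gene's strand.
Kif11: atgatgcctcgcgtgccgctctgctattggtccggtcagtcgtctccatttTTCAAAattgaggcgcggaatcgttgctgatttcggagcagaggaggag
Kif15: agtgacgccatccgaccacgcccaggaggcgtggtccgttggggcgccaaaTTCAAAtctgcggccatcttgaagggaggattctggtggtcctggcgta
Kif22: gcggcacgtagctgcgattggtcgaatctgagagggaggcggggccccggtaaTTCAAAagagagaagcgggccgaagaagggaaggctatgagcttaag
Kif18b: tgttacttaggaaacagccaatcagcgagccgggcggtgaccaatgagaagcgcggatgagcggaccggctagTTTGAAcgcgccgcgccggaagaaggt
Kif23: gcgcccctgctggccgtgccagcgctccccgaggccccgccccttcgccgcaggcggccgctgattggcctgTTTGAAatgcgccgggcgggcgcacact
Kif20b: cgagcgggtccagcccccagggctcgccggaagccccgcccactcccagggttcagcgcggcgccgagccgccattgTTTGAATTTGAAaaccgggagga
Kif4: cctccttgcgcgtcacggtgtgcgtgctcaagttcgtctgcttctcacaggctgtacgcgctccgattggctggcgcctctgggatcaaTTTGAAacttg
Kif24: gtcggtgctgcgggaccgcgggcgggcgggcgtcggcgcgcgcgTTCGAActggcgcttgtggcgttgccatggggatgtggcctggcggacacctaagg
Kif3a: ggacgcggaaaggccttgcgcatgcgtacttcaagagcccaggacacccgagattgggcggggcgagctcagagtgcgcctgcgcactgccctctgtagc
In GRCm38.p6 the windows with the reverse element are chr19:37376312-37376411 (plus strand) for Kif11, chr9:122951011-122951110 (plus strand) for Kif15 and chr7:127042391-127042490 (minus strand) for Kif22. Those with the forward element are chr11:102925095-102925194 (minus strand) for Kif18b, chr9:61946770-61946869 (minus strand) for Kif23, chr19:34922288-34922387 (plus strand) for Kif20b and chrX:100625995-100626094 (plus strand) for Kif4. The last pair are chr4:41464819-41464918 (minus strand) for Kif24 and chr11:53567299-53567398 (plus strand) for Kif3a.

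In Kif11 and Kif15 the reverse element lay from 19 to 14 bases before the start, and in Kif22 from 17 to 12 before it. The forward element began at base 4 from the start in Kif18b, 3 in Kif23, 20 in Kif4, and 8 and 14 in Kif20b, where it occurs in tandem. Kif2c had a reverse element at 103 bases before the start and Kif14 a forward one at 228, both outside the printed window, and Kif18a had none in the 300 bases. CCAAT, the box bound by the factor NF-Y, was found on either strand in 6 of the 10 mitotic promoters, 4 of 12 transport promoters and 37.4% of all promoters. It was also in 69.6% of the spindle, centromere and midzone promoters and in 72.2% of those of DNA replication genes. In no kinesin promoter did CCAAT overlap the other motifs. TTCGAA was found in 1.56% of all promoters and, among the kinesins, in Kif24 alone.

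Values are log2 RMA intensities, and a log2 fold change is the GFP-positive mean less the GFP-negative mean. Array medians lay between 74 and 78.5 on the linear scale. The highest of 3 Y-linked genes in the female arrays, 4.69, and the highest Xist value in the male arrays, 5.59, served as a lower and a higher mark of background. Of the 37 kinesins 29 had a group mean above the higher background mark: 10 mitotic, 13 transport and 6 others. Kit, the stem cell factor receptor of the sort gate, lay between 9.69 and 10.72 on all arrays, while Ms4a1, a mature B cell antigen, lay between 3.33 and 3.57, and Cd4 lay between 8.23 and 9.92. GFP-positive replicate 1 stood apart in endothelial and stromal markers, whose mean over 8 genes was 9.66 there and between 6.53 and 7.11 on the other arrays. Of these 8 genes Cxcl12, a chemokine of stromal cells, did not overlap between the groups (5.89% of all genes separated higher), at 5.34, 5.52 and 5.38 on the GFP-negative and 12.52, 9.27 and 8.33 on the GFP-positive arrays. Cxcl12 had a log2 fold change of 4.63 ± 1.04 (SE; limma adjusted p = 0.454), or 2.48 with its probe sets averaged. Because these are bulk samples, fewer cells of a type and less RNA per cell cannot be told apart.

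Mitotic kinesins lay higher in GFP-positive cells. All 11 had a positive log2 fold change, from 0.55 for Kif14 to 2.69 for Kif18b, with a median of 1.33 against 0.01 over all genes, of which 51.3% were positive. The list was set with earlier results of these data known. Kif2a, which also acts at spindle poles, and Kif2b were placed with the other kinesins, at 0.01 and 0.04. In 7 of the 11 (Kif2c, Kif4, Kif11, Kif14, Kif15, Kif18b and Kif22) the groups did not overlap, each GFP-positive array lying above each GFP-negative one, against 5.89% of all genes. The same 7 had an unadjusted p under 0.05 by limma in that direction, against 3.33% of all genes. None passed over all genes: limma called 0 of 18194 genes at an adjusted p under 0.05 (0%). At an unadjusted p under 0.05 there were 606 genes higher in GFP-positive cells and 615 lower. Kif22 had the smallest limma adjusted p of the family, 0.224.

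With the array of high endothelial signal, GFP-positive replicate 1, left out, 5 mitotic kinesins had an unadjusted p under 0.05 (3.76% of all genes higher), 7 had groups that did not overlap (10.4% of all genes) and the median was 1.18. Within pairs of the same replicate number the median difference was 1.33, 1.25 and 1.53 for numbers 1, 2 and 3, and 11, 10 and 10 of the 11 genes were higher in the GFP-positive array. Among the 4 male arrays alone the median was 1.36, 5 had an unadjusted p under 0.05 (4.09% of all genes higher) and 9 of 11 had groups that did not overlap (16.3% of all genes). With the replicate number as a block 8 had such a p (3.66% of all genes higher). The direction was seen in the female pair and in both male pairs.

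**Figure D1:**
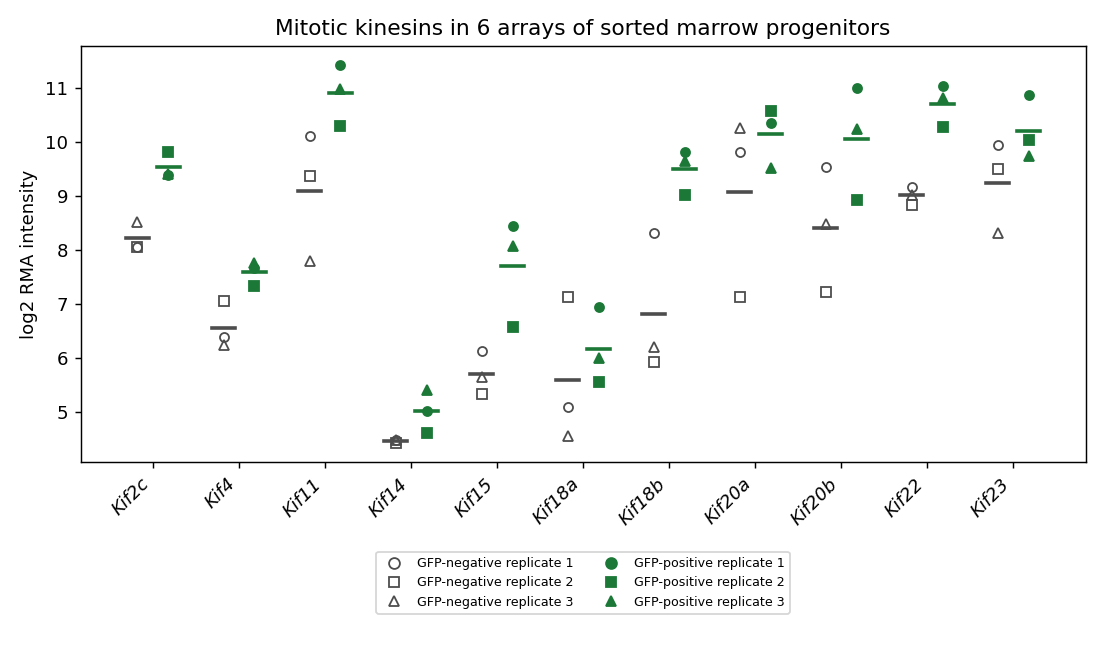
Log2 RMA intensity of the 11 mitotic kinesins on each array, open grey for GFP-negative and filled green for GFP-positive, with shapes for replicates 1 to 3 and a bar at each group mean (n = 3). The GFP-positive mean is the higher one for every gene, and the groups overlap for Kif18a, Kif20a, Kif20b and Kif23.

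The motors that hold the spindle poles apart came first. Kif11, which slides antiparallel microtubules apart to make the spindle bipolar, was at 10.12, 9.36 and 7.80 on GFP-negative replicates 1, 2 and 3 and at 11.43, 10.30 and 10.99 on the GFP-positive ones. The lowest GFP-positive array lay just above GFP-negative replicate 1, and GFP-negative replicate 3 was the lowest of all. Its log2 fold change was 1.81 ± 0.63 (SE, n = 3 per group; limma adjusted p = 0.667), a fold of 3.51, and it was 1.17 without GFP-negative replicate 3. Kif15, which backs up Kif11 in keeping the spindle bipolar, was at 6.13, 5.32 and 5.64 against 8.45, 6.57 and 8.08. GFP-positive replicate 2 was the nearest to the GFP-negative arrays, which all lay close to background. The log2 fold change of Kif15 was 2.00 ± 0.52 (SE; limma adjusted p = 0.52), a fold of 4.01.

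The chromokinesins, which sit on chromosome arms, were Kif22 and Kif4. Kif22 pushes the arms toward the spindle equator and was at 9.16, 8.84 and 9.02 on the GFP-negative arrays against 11.03, 10.27 and 10.82 on the GFP-positive ones. The groups were more than a full log2 unit apart and the GFP-negative arrays nearly level. This gave a log2 fold change of 1.70 ± 0.24 (SE; limma adjusted p = 0.224), a fold of 3.25. Kif4, which acts in chromosome condensation and in the central spindle, was at 6.38, 7.05 and 6.23 against 7.66, 7.32 and 7.75. GFP-negative replicate 2 came closest to the GFP-positive arrays. The log2 fold change of Kif4 was 1.03 ± 0.27 (SE; limma adjusted p = 0.52).

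Kinesins that act on microtubule ends were less alike. Kif18b, which shortens astral microtubules, was at 8.31, 5.92 and 6.19 against 9.82, 9.02 and 9.65. GFP-negative replicate 1 stood more than 2 log2 units above the other GFP-negative arrays and still below all GFP-positive ones. This made a log2 fold change of 2.69 ± 0.66 (SE; limma adjusted p = 0.504), a fold of 6.46, the largest of the 37 kinesins. Kif2c, which takes apart microtubule ends at centromeres and so corrects wrong attachments, was at 8.06, 8.05 and 8.51 against 9.39, 9.82 and 9.41. Both groups were tight, with a log2 fold change of 1.33 ± 0.21 (SE; limma adjusted p = 0.255), a fold of 2.52. Kif18a, which dampens the movements of chromosomes at the spindle equator, was at 5.09, 7.12 and 4.55 against 6.94, 5.54 and 5.99. GFP-negative replicate 2 was the highest array, so the groups overlapped, at a log2 fold change of 0.57 ± 0.74 (SE; limma adjusted p = 0.971). It was -0.07 in the male arrays alone and 1.34 without GFP-negative replicate 2, and with each other array left out it ranged from 0.05 (GFP-negative replicate 3) to 0.88 (GFP-positive replicate 2).

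Motors of the central spindle and of cytokinesis were also higher on average, with more overlap. Kif23, the motor of the centralspindlin complex, was at 9.94, 9.49 and 8.31 against 10.87, 10.03 and 9.74, so that GFP-positive replicate 3 lay below GFP-negative replicate 1. It had a log2 fold change of 0.97 ± 0.50 (SE; limma adjusted p = 0.855), which was 0.50 without GFP-negative replicate 3, 0.64 without GFP-positive replicate 1 and 0.46 with its probe sets averaged. Kif20b, which acts at the midbody, was at 9.54, 7.21 and 8.48 against 11.00, 8.93 and 10.24, higher in the GFP-positive array of every replicate number by 1.46, 1.73 and 1.76. Across numbers the groups overlapped, at a log2 fold change of 1.65 ± 0.75 (SE; limma adjusted p = 0.796), or 1.05 without GFP-negative replicate 2. Kif20a, which brings the chromosomal passenger complex to the central spindle, was at 9.82, 7.12 and 10.25 against 10.36, 10.58 and 9.52. GFP-negative replicate 2 stood far below the other 5 arrays, and the log2 fold change of 1.09 ± 0.85 (SE; limma adjusted p = 0.958) was 0.11 without it and 1.68 without GFP-negative replicate 3. Kif14, which acts late in cytokinesis, was at 4.47, 4.41 and 4.47 against 5.01, 4.61 and 5.40. These values lie below the higher background mark, so its log2 fold change of 0.55 ± 0.23 (SE; limma adjusted p = 0.745) may be understated. It was 0.36 without GFP-positive replicate 3 and 0.35 with a pseudocount of 16.

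Mitotic kinesins also differed between arrays of the same group. As the median difference from each gene's mean over the 6 arrays, the GFP-negative replicates 1, 2 and 3 stood at -0.25, -0.82 and -0.84 and the GFP-positive ones at 1.14, 0.29 and 0.69. Of the 11 genes 7 were highest in replicate 1 among the GFP-negative arrays, and likewise 7 in replicate 1 among the GFP-positive ones. Replicate 1 is the female array of each group, so sex and replicate number cannot be told apart. GFP-positive replicate 2 was the lowest of its group for 8 genes. The lowest GFP-positive median still lay above the highest GFP-negative one.

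**Figure D2:**
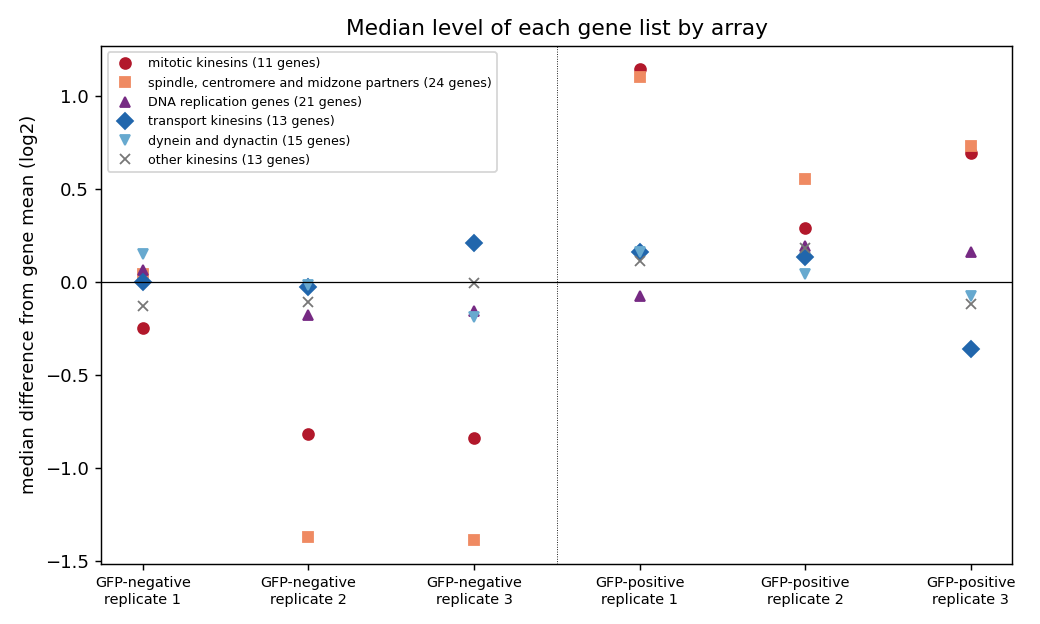
Median over the genes of each list of the log2 difference from the gene's own mean over the 6 arrays, by array. Mitotic kinesins run from -0.84 to -0.25 on GFP-negative and from 0.29 to 1.14 on GFP-positive arrays. Spindle partners run from -1.39 to 0.04 and from 0.55 to 1.10, while transport kinesins stay between -0.36 and 0.21.

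Transport kinesins showed no shared direction. Of the 13 genes 5 had a positive log2 fold change, the median was -0.10, the range -0.43 to 0.63, and the groups overlapped in all 13 (5.89% of all genes separated higher and 5.51% lower). By limma 0 of 13 had an adjusted p under 0.05 and 0 an unadjusted p under 0.05, where 3.33% of all genes were higher and 3.38% lower. Their smallest limma adjusted p was 0.958. All 13 had a group mean above the higher background mark. That does not show that each transcript was present, since Cd8a, an antigen of mature T cells, lay between 6.44 and 6.93. The standard errors of the transport kinesins, from 0.13 to 0.65, leave room for differences of the size of the smaller mitotic ones in the more variable members.

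Kinesin-1 carries vesicles and mitochondria and is a dimer of heavy chains. Its widely expressed heavy chain Kif5b was at 10.85, 9.42 and 9.70 on GFP-negative arrays against 11.26, 10.65 and 9.94, with GFP-positive replicate 3 below GFP-negative replicate 1. The log2 fold change of 0.63 ± 0.49 (SE; limma adjusted p = 0.958) was the largest of the transport group, and its 6 probe sets agreed in sign except for 1. It ranged from 0.30 without GFP-positive replicate 1 to 1.06 without GFP-negative replicate 1, and was 0.24 with the probe sets averaged. The neuronal heavy chains Kif5a and Kif5c were level, at 0.04 ± 0.20 and 0.01 ± 0.13 (log2 fold change ± SE). Kif5c stayed between 5.76 and 5.89 on all arrays, near the higher background mark.

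Kinesin-2 motors carry cargo along the cilium and in the cytoplasm. Kif3a, a shared subunit of these motors, was at 8.28, 8.27 and 8.48 against 8.70, 7.54 and 7.49. GFP-positive replicates 2 and 3 lay below all GFP-negative arrays and GFP-positive replicate 1 above them. Over all arrays it had a log2 fold change of -0.43 ± 0.35 (SE; limma adjusted p = 0.959). Without GFP-positive replicate 1 it was -0.83 and in the male arrays alone -0.86, each with an unadjusted p under 0.05 (3.76% and 3.55% of all genes lower). These values depended on the probe set, since the others of Kif3a were at 0.22, -0.04 and 0.44 over all arrays. With the probe sets averaged, the log2 fold change of Kif3a was 0.05. Its partner Kif3b had a log2 fold change of -0.16 ± 0.37, Kif3c one of -0.08 ± 0.30 and Kif17, a motor of cilia and dendrites, one of -0.22 ± 0.40 (± SE).

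Kinesin-3 motors carry vesicles and endosomes over long distances. Kif1c was at 7.27, 8.34 and 8.11 against 8.65, 7.90 and 6.34, and Kif13a, which moves recycling endosomes, at 7.66, 6.88 and 7.78 against 8.45, 7.60 and 5.96. In both genes GFP-positive replicate 1 was the highest array and GFP-positive replicate 3 the lowest, so the spread within that group exceeded the difference between groups. The log2 fold changes were -0.28 ± 0.63 for Kif1c and -0.10 ± 0.65 for Kif13a (SE). With the probe sets of each gene averaged they were 0.32 and -0.37. Kif1b, which carries mitochondria and synaptic vesicle precursors, was at 0.43 ± 0.43 and Kif13b at 0.43 ± 0.46 (log2 fold change ± SE). The early endosome motor Kif16b was at -0.23 ± 0.37 and the neuronal Kif1a at -0.15 ± 0.17 (log2 fold change ± SE). Averaged over probe sets, Kif1b was at -0.05, Kif13b at 0.07 and Kif16b at 0.13.

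**Figure D3:**
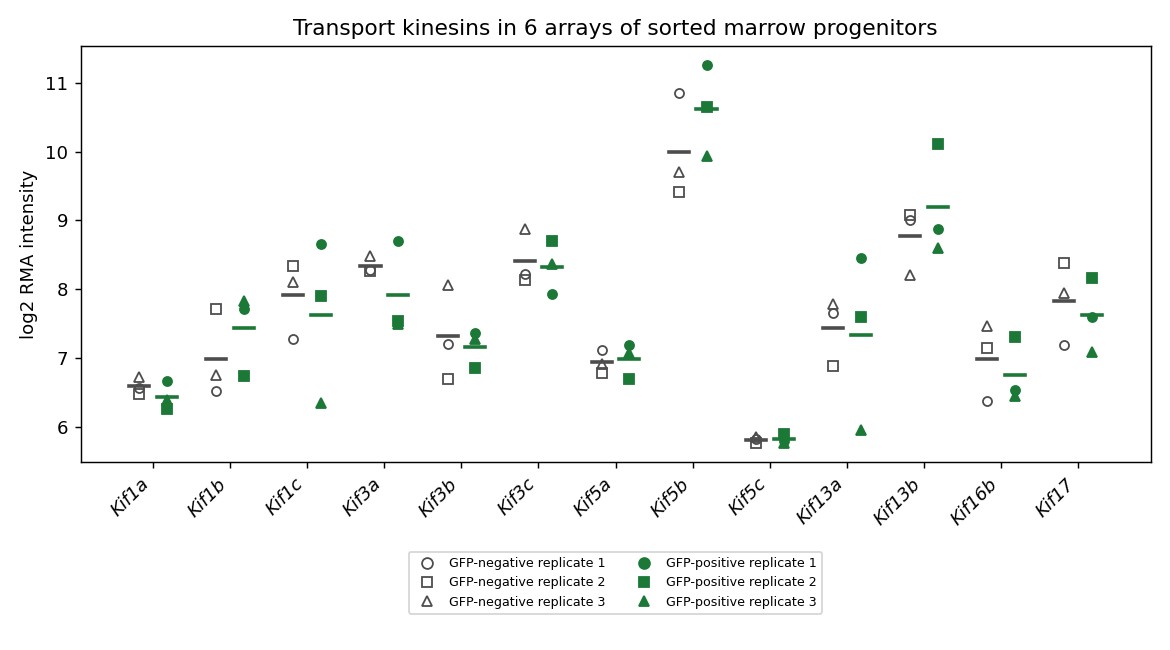
Log2 RMA intensity of the 13 transport kinesins on each array, drawn as for the mitotic ones. The groups overlap for every gene, and Kif1c and Kif13a spread most within the GFP-positive group.

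Among the 13 other kinesins 8 had a positive log2 fold change, with a median of 0.04. In 2 of them, Kif24 and Kif26b, the groups did not overlap (5.89% of all genes), and 1, Kif24, had an unadjusted p under 0.05 (3.33% of all genes). Kif24, which acts at centrioles to hold back the growth of cilia in dividing cells, was at 6.88, 6.74 and 6.80 against 6.99, 7.93 and 8.57. GFP-positive replicate 1 lay just above the GFP-negative arrays and the other two well above them, at a log2 fold change of 1.03 ± 0.40 (SE; limma adjusted p = 0.729), or 0.65 without GFP-positive replicate 3. With the replicate number as a block, and without each array except GFP-positive replicate 1, the unadjusted p of Kif24 was not under 0.05, which leaves 0 of 13. Kif26b, an atypical kinesin of signalling, lay at 5.06, 5.04 and 5.01 against 5.19, 5.85 and 5.27, close to background.

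The Kif2 genes, which are among the depolymerising kinesins, were not alike. Kif2a, which takes microtubule ends apart at spindle poles and in neurons, was at 10.18, 10.22 and 10.29 against 10.41, 10.31 and 9.98, with a log2 fold change of 0.01 ± 0.17 (SE), where its relative Kif2c was at 1.33 ± 0.21. The difference between the 2 genes was not tested. Kif2b was at 0.04 ± 0.19, with values from 3.96 to 4.40 that do not exceed the lower background mark. Kif21b, which regulates microtubule growth in lymphocytes and neurons, was at -0.31 ± 0.39, and its relative Kif21a at 0.79 ± 0.83, with 7.71 on GFP-positive replicate 2 against 4.55 to 6.09 elsewhere. Kif7, a regulator of Hedgehog signalling at the cilium, was at 0.39 ± 0.40, its relative Kif27 at 0.11 ± 0.27 and Kif9, of motile cilia and sperm, at -0.01 ± 0.53. The remaining members Kif6, Kif12, Kif26a and Kif28 had group means under the higher background mark, with log2 fold changes from -0.09 to 0.24.

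**Figure D4:**
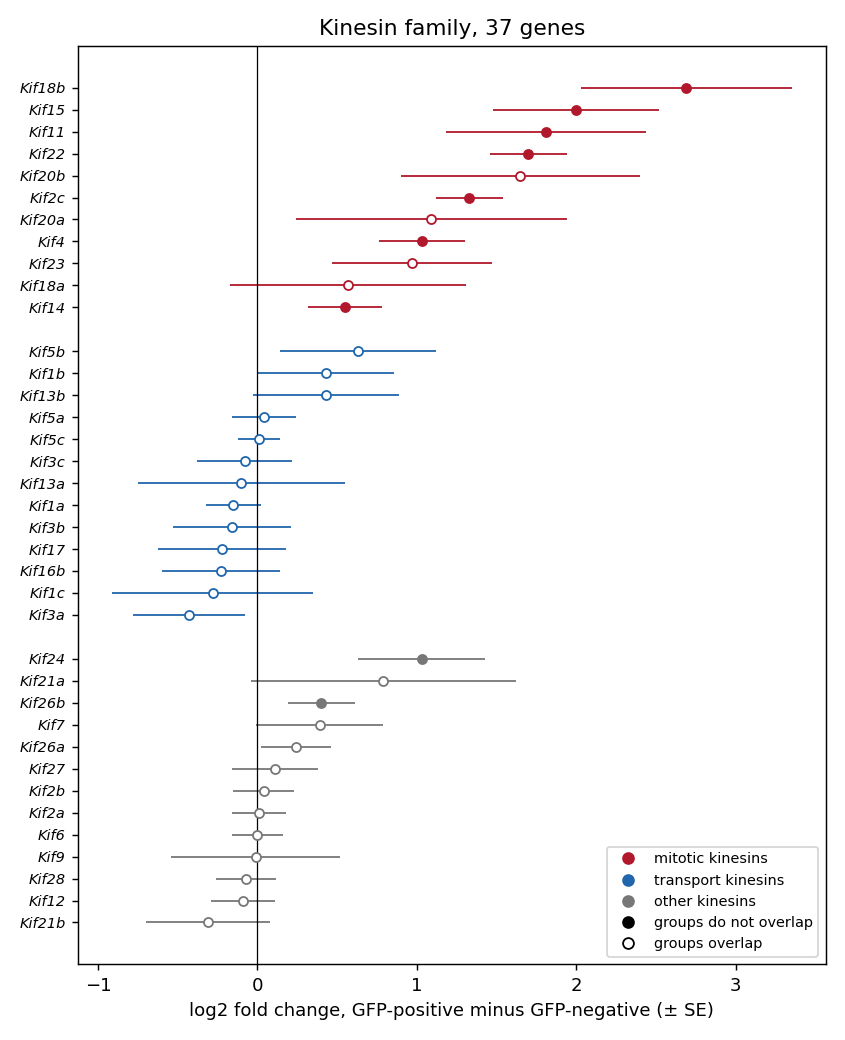
Log2 fold change (GFP-positive minus GFP-negative) ± SE of all 37 kinesins, grouped by role and sorted within each group, filled where the groups do not overlap. The 11 mitotic kinesins lie between 0.55 and 2.69 and the 13 transport kinesins between -0.43 and 0.63.

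Further probe sets, which the choice of 1 per gene left aside, gave a second reading of the same RNA. The 37 genes had 99 probe sets, and 12 genes had 1. Of the 24 mitotic probe sets 23 had a positive log2 fold change and 12 had groups that did not overlap (5.69% of all probe sets with 1 symbol), with a median of 1.39. The exception, the dimmest probe set of Kif23 at -0.09, lay between 2.90 and 3.49 on all arrays. All 19 mitotic probe sets with a mean above the higher background mark were positive, as were 10999 of all 23351 such probe sets. That mean covers both groups, so a probe set could pass through its GFP-positive arrays alone. A Kif2c probe set did so, at 5.24, 5.34 and 5.00 on the GFP-negative arrays against 5.58, 8.09 and 5.13. The 3 probe sets of Kif11 ranged from 1.66 to 1.98 and those of Kif22 from 1.70 to 1.84 (log2 fold change), and in all 6 the groups did not overlap. The 4 of Kif2c ranged from 1.07 to 1.66 and the 4 of Kif20b from 1.34 to 2.22. Kif4, Kif14, Kif15, Kif18b and Kif20a rest on 1 probe set each. Of the 51 transport probe sets 27 were positive, the median was 0.01, and the groups did not overlap in 1 (higher, of Kif1c) and 3 (lower, of Kif1b, Kif13a and Kif13b). The chosen Kif2c and Kif22 probe sets are of types that may bind transcripts of related genes, per their suffix, while each gene had another probe set with a log2 fold change above 1.

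**Figure D5:**
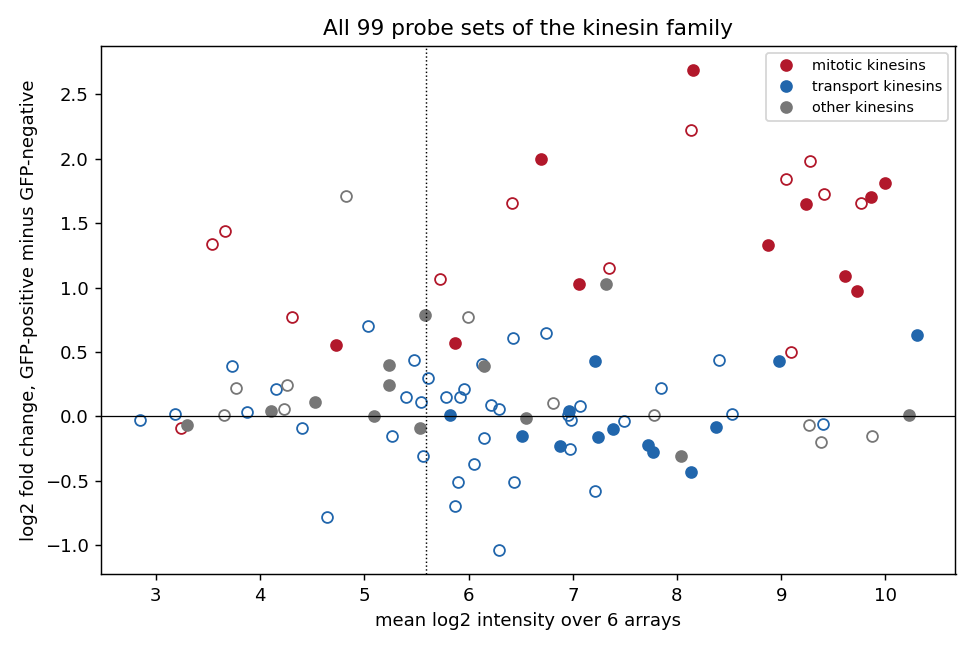
Log2 fold change of all 99 kinesin probe sets against their mean log2 intensity over 6 arrays, filled where the probe set stood for its gene, with the dotted line at the higher background mark (5.59). Right of that line all 19 mitotic probe sets lie above 0, and 19 of 38 transport probe sets do. A probe set can pass the line through its GFP-positive arrays alone.

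Genes that work with the mitotic kinesins lay on the same side. Of 24 spindle, centromere and midzone genes all 24 had a positive log2 fold change, 16 had an unadjusted p under 0.05 (3.33% of all genes), in 14 the groups did not overlap (5.89% of all genes), and the median was 1.58. None passed by limma over all genes. Aurka, the kinase that activates spindle assembly, was at 8.96, 7.47 and 7.75 against 10.63, 10.54 and 10.90, and Nuf2, of the kinetochore complex that grips microtubules, at 8.46, 7.40 and 7.32 against 9.34, 9.38 and 10.20. Their limma adjusted p-values were 0.254 and 0.415, and the log2 fold change of Aurka, 2.63, was 1.33 with its probe sets averaged. Cenpe, a kinesin of the kinetochore under another symbol, was at 0.31 ± 0.60 (log2 fold change ± SE). This value depended on the probe set, since the other one was at 2.52 and their average at 1.42, and it was -0.06 without GFP-negative replicate 2 and -0.10 without GFP-positive replicate 1. Mki67, a marker of dividing cells, was at 1.50 ± 0.49 (log2 fold change ± SE). Like the mitotic kinesins, the partner list stood highest among GFP-negative arrays in replicate 1, for 22 of its 24 genes.

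DNA replication genes, which are active earlier in the cell cycle, lay closer to the middle. Of 21 genes 17 had a positive log2 fold change, 3 had an unadjusted p under 0.05 (3.33% of all genes higher), in 4 the groups did not overlap, all higher (5.89% of all genes), and the median was 0.26. Those of smallest p were Ccne1, a cyclin of S phase entry, at 1.18 ± 0.27 and Rrm2, a subunit of the enzyme that makes deoxynucleotides, at 1.04 ± 0.30 (log2 fold change ± SE; limma adjusted p = 0.457 and 0.553). Within replicate number 1 the median was -0.21, with 5 of 21 genes higher, against 0.46 and 0.54 within numbers 2 and 3. The mitotic kinesins had medians of 1.33, 1.25 and 1.53 in the same pairs. Whether the lists differ was not tested.

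A mixed list of kinesin-14 motors, kinesin light chains and cargo adaptors had no shared direction. It does not hold partners of transport motors alone, since Kifc1 acts at spindle poles. Of 14 measured kinesin-14 motors, light chains and cargo adaptors 6 were positive, with a median of -0.20, 1 had an unadjusted p under 0.05 (3.33% of all genes higher), and in 3 the groups did not overlap, all higher (5.89% of all genes). The gene of smallest p was Kifap3, which links Kif3 motors to cargo, at 9.33, 9.51 and 9.31 against 9.84, 9.73 and 10.00, a log2 fold change of 0.47 ± 0.15 (SE; limma adjusted p = 0.622), or 0.26 with its probe sets averaged. The other two were Kifc1 and Kifc5b, closely related kinesin-14 genes whose probe sets may share signal. Kifc1, which bundles spindle poles, was next in order of p, at 5.67, 5.47 and 5.65 against 6.05, 6.59 and 9.71, so that its log2 fold change of 1.86 ± 0.94 (SE; limma adjusted p = 0.853) rests mostly on GFP-positive replicate 3 and was 0.73 without it. Of 15 genes of dynein and dynactin, the motor that walks the opposite way, 8 were positive, 0 had an unadjusted p under 0.05 by limma, and the median was 0.03. Dync1h1, its heavy chain, and Actr1a, the filament of dynactin, had values of 0.50 ± 0.28 and 0.31 ± 0.23 (log2 fold change ± SE; limma adjusted p = 0.871 and 0.951). With the probe sets of each gene averaged, the sign turned, to -0.48 and -0.02.

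On average, erythroid, B lineage and macrophage markers lay higher on the GFP-positive arrays, as the mitotic kinesins did. The mean over 6 erythroid markers lay between 7.87 and 8.61 on GFP-positive and between 5.89 and 6.02 on GFP-negative arrays, and in 5 of the 6 the groups did not overlap, all higher, where 5.89% of all genes were separated higher and 5.51% lower. For 6 B lineage markers the ranges were 8.26 to 9.66 against 6.68 to 7.19 (4 of 6), and for 6 macrophage markers 7.73 to 8.53 against 5.52 to 6.02 (5 of 6). Slc4a1, the anion exchanger of mature red cells, stayed between 5.32 and 5.94, with overlap. Adgre1, a surface antigen of macrophages, was higher without overlap, at 4.11, 3.65 and 4.03 against 4.47, 5.09 and 4.44. These values lie below the higher background mark. Granulocyte markers ranged from 9.72 to 11.17 against 8.91 to 10.20, with 2 of 6 not overlapping, and plasma cell markers from 6.97 to 8.45 against 6.58 to 7.02, with 0 of 4. Of 5 measured lineage antigens of mature cells 1 had a positive log2 fold change, the median was -0.09, and in 0 the groups did not overlap. In the sort gate list Cd34 and Flt3 lay lower without overlap and Procr higher. The part of these markers in the kinesin values was not tested. Hes1 itself was at 6.78, 6.79 and 7.10 against 7.36, 7.09 and 7.84, a log2 fold change of 0.54 ± 0.24 (SE; limma adjusted p = 0.78), or 0.33 without GFP-positive replicate 3.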

How the data were processed

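Expression was measured on 6 Affymetrix arrays of sorted mouse LSK cells, grouped by sample title, from 5 ng of amplified total RNA per the labels' protocols. For each of 45101 probe sets and each array the authors deposited an intensity on a linear scale. The submitters' processing notes name RMA (background correction, quantile normalisation and summary of the probes), with settings not given in the sources. RMA shrinks differences near background, and quantile normalisation removes changes that most genes share. Values lay between 4.12 and 28141, so log2 was taken with no pseudocount.

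Probe sets with 1 symbol in the platform annotation (34958; 932 carried several and 9211 were not listed) gave 18194 genes, each by its probe set of highest mean. The groups were compared with limma 3.58.1 (lmFit and eBayes, R 4.3.3) without covariates, with Benjamini-Hochberg adjustment over all genes and a threshold of 0.05. Lists have no test of their own. A two-sided exact permutation test of 3 against 3 arrays cannot go below p = 0.1, so groups that do not overlap are counted instead. In simulations of this comparison over 18194 genes (20 runs, 200 changed genes), 11.6% of genes changed by a log2 of 1 and 53.4% of those changed by 2 passed the adjusted threshold. The simulated noise was normal and independent for each gene, so it held no shifts of whole lists by array. The number of arrays limits the precision. Nothing in the labels ties each array to an animal of its own, so the p-values reflect the spread between these samples alone, and that spread may be technical.

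Named were every kinesin, the 2 genes of smallest p in each further list, Mki67 and Hes1. Cenpe and the single cell type markers were chosen after their values were seen. The members and lists were chosen with earlier results of these data known. Plots were made in Python 3.11.15 with matplotlib 3.10.9.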

Additional observations from a re-analysis of the deposited data

How the results depend on the processing

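Under 14 alternatives the median log2 fold change of the mitotic kinesins lay between 1.18 and 1.65 and their count at an unadjusted p under 0.05 between 5 and 8. Of all genes between 2.57% and 4.14% were higher at such a p under these alternatives, 4.14% with dim genes left out. The value 1.65 came with dim genes left out, which dropped Kif14 and Kif18a, so that 6 of 9 had such a p. Under the other alternatives, with all 11 kept, the median did not exceed 1.48. Kif2c, Kif15, Kif18b and Kif22 had such a p and a higher level under all 14. Of the 11 mitotic kinesins 1 changed sign under any alternative (Kif18a, in the male arrays alone), against 11 of 13 transport and 10 of 13 other kinesins, counted on unrounded values. The 14 were a gene's probe sets averaged, genes below the 40th percentile of level left out, renewed quantile normalisation, median centring, a pseudocount of 16, an intensity trend, the replicate block, male arrays alone, and each of the 6 arrays omitted. Over all genes 1 gene passed at an adjusted p under 0.05 with dim genes left out, where fewer genes were tested, and between 0 and 5 with each array omitted, 5 of them without GFP-positive replicate 3. The transport count was 1 (Kif3a, lower) in the male arrays alone, where 3.55% of all genes were lower. With each array omitted the transport count was between 0 and 1. It was 1 without GFP-positive replicate 1 (3.76% of all genes lower). The count of other kinesins was 0 with the replicate block and between 0 and 1 with each array omitted. Same-numbered arrays deviated from their group means with correlations of 0.147, 0.0519 and 0.103, of which 1 is not over 0.1, so the numbers were not taken as pairs, although every array correlated best with its own number. With the replicate block 8 mitotic kinesins, 0 transport kinesins and 0 of 18194 genes adjusted over all genes were called. The cause of these shifts was not tested. Signal near background limits the 8 kinesins with both group means under the higher background mark: Kif2b, Kif6, Kif12, Kif14, Kif26a, Kif26b, Kif27 and Kif28.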

Other observations

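Of the 7 probe sets of Kif1b, 1 that did not stand for the gene was at 8.35, 4.14 and 8.59 on GFP-negative replicates 1, 2 and 3 and at 8.64, 8.61 and 4.07 on the GFP-positive ones, near background on 1 array of each group. A pair of Kif20b probe sets that did not stand for the gene was at 6.24 and 5.70 on GFP-positive replicate 3, not above 4.11 on replicate 2 and between 2.57 and 3.27 on the other arrays. Both patterns were noticed after the values were seen, and no test was made.

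The effect of GFP was compared between the female and the male arrays by limma with an interaction term, which rests on 1 female and 2 male arrays per group. Of the 37 kinesins 0 had an adjusted p under 0.05 (smallest 0.556), and 2 had an unadjusted p under 0.05, against 7.24% of all genes.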
